A study of Homo sapiens with 6 samples.

Results

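The cyclins D and E, the kinases they activate and the phosphatase CDC25A were examined at their transcription start sites in H1299, a human cell line from a non-small cell lung carcinoma. The 9 genes were CCND1, CCND2, CCND3, CCNE1, CCNE2, CDK2, CDK4, CDK6 and CDC25A, with 10 start sites on hg19, since CCND3 entered with starts 107.1 kb apart. Members were all called intervals of H3K4me3 or H3K27me3 that reached within 5 kb of a start. They numbered 76 of 275570 intervals in the 4 lists: 33 of 50585 for H3K4me3 in control cells, 33 of 53454 for H3K4me3 after metformin, 6 of 85579 for H3K27me3 in control cells and 4 of 85952 for H3K27me3 after metformin. The control cells received no drug and the treated cells metformin, an oral drug for diabetes, at 5 mM. The treatment time is not given in the sources used here, and both conditions came from this single cell line. Each mark and condition had 1 ChIP-seq library, so all values below stand side by side without replicate error, test or p-value. The labelled cell type was not checked against marker genes, because no gene positions on hg19 were at hand beyond the 10 starts. The 2 input libraries were not analysed here.

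D-type cyclins bind CDK4 and CDK6 in early G1 phase and start the phosphorylation of the retinoblastoma protein, which releases E2F transcription factors. E2F in turn drives CCNE1, CCNE2 and CDC25A. Cyclin E activates CDK2 for entry into S phase, and CDC25A removes inhibitory phosphates from cyclin-dependent kinases. H3K4me3 marks promoters that are active or poised, and H3K27me3 is laid down by Polycomb repressive complex 2. Promoters that carry both are called bivalent, a state often found at developmentally regulated genes.

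Promoter sequences were taken from RefSeq for the members whose start lay in or beside a break of H3K4me3 and that had an entry, so that the bases around those breaks can be read. The table, on GRCh38.p14, held 8 promoters of 5 of the 9 genes: CCND3, CCNE1, CDK4, CDK6 and CDC25A. CCND1, CCND2, CCNE2 and CDK2 had no entry. The 250 bases before the start are shown 5′ to 3′ on the gene's strand. The start of the table can differ from the one used on hg19, and the positions of the builds must not be compared. The CCND3 entries were assigned by their spacing, 106880 bp against 107110 bp on hg19. These differ by 230 bp, so the CCND3 bases shown may not be those directly before the hg19 starts. Capitals mark GC boxes (GGGCGG) at CCND3 and CCNE1, E-boxes (CACGTG) at CDK4 and the E2F motif (TTTGGCGC, TTTCCCGC, TTTCGCGC or TTTGCCGC) at CDC25A, each on either strand.
CCND3 upstream start, chr6:42048689-42048938, minus strand: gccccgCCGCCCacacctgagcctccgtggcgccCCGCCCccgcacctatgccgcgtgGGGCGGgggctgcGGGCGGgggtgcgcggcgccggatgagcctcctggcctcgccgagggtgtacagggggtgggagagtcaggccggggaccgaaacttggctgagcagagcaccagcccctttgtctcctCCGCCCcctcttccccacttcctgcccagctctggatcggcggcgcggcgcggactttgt
CCND3 downstream start, chr6:41941809-41942058, minus strand: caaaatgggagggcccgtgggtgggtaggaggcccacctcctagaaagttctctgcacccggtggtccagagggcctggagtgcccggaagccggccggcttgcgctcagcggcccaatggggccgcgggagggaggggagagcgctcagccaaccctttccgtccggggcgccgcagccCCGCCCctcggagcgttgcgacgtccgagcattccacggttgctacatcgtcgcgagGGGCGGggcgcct
CCNE1, chr19:29811741-29811990, plus strand: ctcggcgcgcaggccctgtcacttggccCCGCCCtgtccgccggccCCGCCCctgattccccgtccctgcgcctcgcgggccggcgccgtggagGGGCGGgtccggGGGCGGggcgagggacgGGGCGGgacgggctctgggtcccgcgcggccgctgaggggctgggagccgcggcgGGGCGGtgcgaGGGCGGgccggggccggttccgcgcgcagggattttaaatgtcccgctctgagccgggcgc
CDK4, chr12:57752311-57752560, minus strand: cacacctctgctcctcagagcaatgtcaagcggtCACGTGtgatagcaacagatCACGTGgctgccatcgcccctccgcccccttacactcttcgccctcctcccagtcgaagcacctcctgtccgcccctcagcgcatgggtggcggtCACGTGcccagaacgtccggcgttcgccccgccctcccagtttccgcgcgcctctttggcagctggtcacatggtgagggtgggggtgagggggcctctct
CDC25A, chr3:48188418-48188667, minus strand: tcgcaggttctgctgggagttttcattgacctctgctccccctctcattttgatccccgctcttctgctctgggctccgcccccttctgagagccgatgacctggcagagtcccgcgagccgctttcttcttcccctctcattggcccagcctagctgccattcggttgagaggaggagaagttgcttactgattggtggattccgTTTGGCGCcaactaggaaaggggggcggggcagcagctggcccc

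The CCNE1 promoter was the richest in G and C of these, at 81.2% with 39 CpG dinucleotides, against a median of 58.0% and 11 CpG over the 35116 promoters of the table. It held 7 GC boxes, a motif bound by Sp1 family factors that 42.6% of all promoters held at least once. The CCND3 upstream promoter held 5 and the downstream promoter 2, at 74.4% and 71.2% G and C. The CDK4 promoter held 3 E-boxes, the motif of MYC and related factors, whose first bases lay 216, 196 and 101 bases before the start. Of all promoters, 6.34% held an E-box. The CDC25A promoter, at 60.0% G and C with 11 CpG, held a single E2F match that began 44 bases before the start, and 2.79% of all promoters held one. CCNE1, named above as a gene driven by E2F, had 0 E2F matches in this window, and so had the CCND3 and CDK4 promoters shown and both CDK6 promoters of the table. GC boxes also numbered 3 at CDK4 and 2 at CDC25A. CCAAT boxes (CCAAT), found in 32.0% of all promoters, numbered 2 at CDC25A and 1 at the CCND3 downstream start. CRE motifs (TGACGTCA or TGACGTAA) and TATA boxes (TATAAA), present in 2.002% and 10.7% of all promoters, had no match in the windows of the 5 promoters shown. Matches are letters in these windows and say nothing of binding.

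H3K4me3 lay within 5 kb of all 10 starts in both conditions, while H3K27me3 came that close to CCND2 alone. The deposited value of an H3K4me3 interval was read as the −log10 q of its highest sub-peak. It ranks intervals within a list and is no signal level, so values of both conditions are printed to identify the calls and are not compared. At each start the best interval, mostly picked from several, had a value above that of 77.5% or more of the control list. After metformin it was above that of 76.5% or more of the list. The lowest of these best values was 19.7 in control cells, at CCND2, and 23.2 after metformin, at CCND1. Members had a median width of 1162 bp against 517 bp for the whole list in control, and 1095 bp against 524 bp after metformin. The rule takes intervals that touch a window at a start, which favours long ones. Intervals at the starts of other genes were not compared, so the width is not read as a trait of these genes. The map of called intervals shows their extents.

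**Figure D1:**
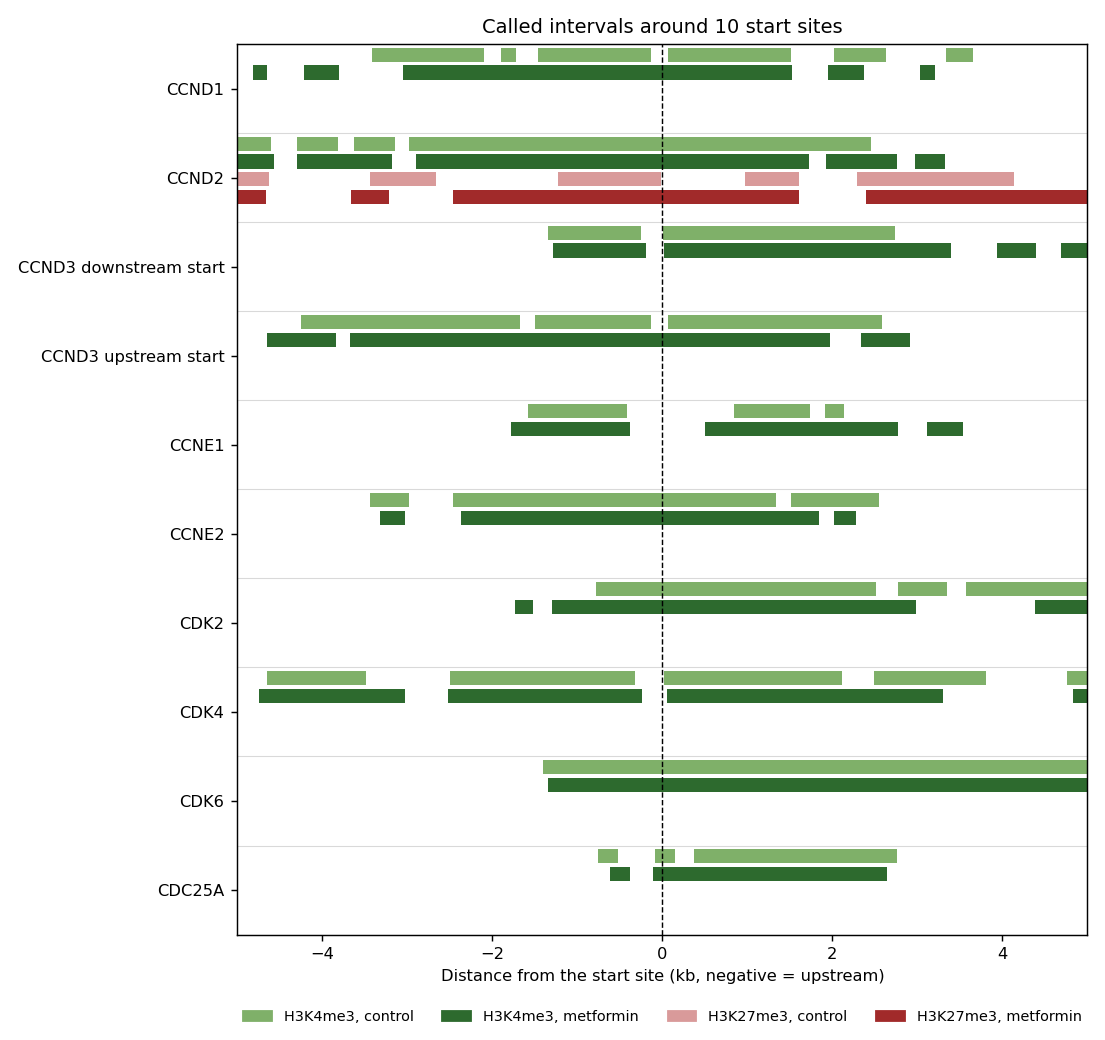
Called intervals within 5 kb of the 10 start sites, drawn by gene strand, with 1 row of bars per list. The horizontal axis is distance from the start in kb, and bars are cut at the window's ends. H3K27me3 is seen only at CCND2, and CCNE1 has the widest break of H3K4me3 over its start in both conditions.

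CCND1 encodes cyclin D1, a D-type cyclin often amplified in human cancers. In control cells its start (chr11:69455873) lay in a break of 202 bp between the H3K4me3 intervals chr11:69454405-69455741 (1337 bp, value 17.8) and chr11:69455944-69457388 (1445 bp, 29.1). Further control intervals lay upstream at chr11:69452464-69453778 (12.3) and at chr11:69453980-69454155 (5.59). After metformin a single interval, chr11:69452822-69457402, of 4581 bp and value 23.2, covered the start and touched all 4 of these. Metformin intervals of 164, 413 and 180 bp (3.15, 4.63 and 2.38) and a control interval of 316 bp (3.46) lay further out, without a partner. Downstream, weaker intervals were called from 2017 to 2626 bp in control (6.66) and from 1943 to 2376 bp after metformin (6.76). H3K4me3 covered 5199 bp of the window in control and 5772 bp after metformin. LOC124902704, listed as protein-coding, is a neighbour of CCND1 in RefSeq, so the outer intervals cannot be given to CCND1 with certainty.

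CCND3 encodes cyclin D3 and was marked at both of its starts. At the upstream start (chr6:42016610), control cells had 3 intervals of 2510, 1370 and 2573 bp, with a break of 199 bp over the start. After metformin, chr6:42014634-42020281, 5648 bp long with a value of 55.6, ran across it. The 3 control intervals had values of 17.7, 14.0 and 33.5. Metformin intervals of 572 bp (6.81) and 811 bp (3.17) lay on the gene side and the upstream side of the long one. At the downstream start (chr6:41909500) the break remained: 265 bp in control, from 254 bp upstream to 10 bp downstream, and 205 bp after metformin, from 190 bp upstream to 14 bp downstream. The interval on the gene side of that break measured 2723 bp in control cells (26.95) and 3386 bp after metformin (46.0). The one on the upstream side was 1094 bp and 1095 bp long, with values of 13.6 and 29.4. Coverage at the downstream start came to 3817 bp in control cells and to 5242 bp in treated cells, and 303 and 458 bp of the latter came from weak metformin intervals with values of 4.02 and 1.37. At the upstream start it was 6453 and 7031 bp. RefSeq places the protein-coding TAF8 and BYSL beside CCND3. The lists do not tell which gene the outer parts of these intervals belong to.

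CCNE1 encodes cyclin E1 and had the least H3K4me3 of the 10 windows in control cells, 2269 bp. Its start (chr19:30302901) lay in the widest of the breaks over a start. In control cells no H3K4me3 was called from 417 bp upstream to 842 bp downstream, a stretch of 1260 bp, and after metformin from 385 bp upstream to 503 bp downstream, 889 bp. The upstream interval had a width of 1158 bp and a value of 21.0 in control, against 1394 bp and 36.5 after metformin. On the gene side, control cells had 888 bp (14.7) and a weak stretch of 223 bp (1.36), both of which lay inside a metformin interval of 2263 bp with a value of 24.2. A metformin interval of 424 bp (3.39) with no control partner lay further into the gene. The window held 4081 bp after metformin, 1.80 times the control length and the largest ratio of the 10 starts. If the starts of both builds coincide, the printed GC-rich promoter lies inside the uncalled stretch.

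CCNE2 encodes cyclin E2, and its start (chr8:95907473) was under H3K4me3 in both conditions. The covering interval was 3794 bp long with a value of 39.3 in control and 4209 bp with 61.6 after metformin. The smaller intervals on its flanks were shorter after metformin. The downstream one measured 1031 bp in control and 267 bp in treated cells, and the upstream one 462 and 292 bp. Of the 1031 bp, 597 bp lay under metformin intervals, since the metformin interval over the start also took in part of them. Coverage was thus 5287 bp in control and 4768 bp after metformin, at a ratio of 0.902, the lowest of the set. INTS8 and NDUFAF6 are protein-coding neighbours of CCNE2 in RefSeq, so the outer parts of these intervals cannot be given to CCNE2 with certainty.

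CDK6, a kinase partner of the D-type cyclins, carried the longest H3K4me3 of the members. A single interval covered its start (chr7:92465941) in each list: chr7:92458958-92467340 in control (8383 bp, 22 sub-peaks, 55.4) and chr7:92458729-92467288 after metformin (8560 bp, 27 sub-peaks, 68.6). It began 1399 bp upstream in control and 1347 bp upstream after metformin, and reached 6983 and 7212 bp into the gene. Only a small part of all H3K4me3 intervals were as long, since 99.9% of each list was shorter. The ratio of their widths was 1.02, and 8331 bp were common to both. RefSeq lists a further CDK6 promoter and places long noncoding RNA genes such as CDK6-AS1 beside CDK6. The lists do not tell which start the parts of these intervals belong to.

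CDK4, the other kinase partner of the D-type cyclins, had H3K4me3 on both sides of a break at its start (chr12:58146164). The break was 343 bp long in control, from 318 bp upstream of the start to 24 bp downstream. After metformin it was 288 bp long, from 238 bp upstream to 49 bp downstream. On the gene side the control interval chr12:58144046-58146139 (2094 bp) had the highest control value of all members, 76.8. The metformin interval there, chr12:58142862-58146114, was longer (3253 bp) with a value of 60.4, and it took in a separate control interval of 1319 bp in part. On the upstream side the intervals were 2182 and 2278 bp long (16.3 and 24.4), and beyond them lay chr12:58149649-58150810 in control (1162 bp, 17.7) and chr12:58149197-58150908 after metformin (1712 bp, 19.9). The highest member value after metformin, 103.5, belonged to chr12:58137132-58141335, which entered the window only at its edge, 4829 bp downstream of the start. RefSeq places TSPAN31, MARCHF9 and AGAP2 beside CDK4, and the lists do not tell which gene such an outer interval belongs to. H3K4me3 covered 7001 bp in control and 7415 bp after metformin, the most of the 10 windows in both.

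CDK2, the partner of cyclin E, was covered over its start (chr12:56360556) in both lists, from 781 bp upstream to 2517 bp downstream in control (3299 bp, 58.5) and from 1302 bp upstream to 2985 bp downstream after metformin (4288 bp, 63.5). The metformin call took in part of a control interval of 569 bp. A second domain further downstream was shorter after metformin, 2405 bp against 3198 bp, with its near edge at 4381 instead of 3569 bp from the start. RAB5B and PMEL are the protein-coding neighbours of CDK2 in RefSeq, so this domain cannot be given to CDK2 with certainty. The values of this domain were 21.5 in control and 28.3 after metformin, and a metformin interval of 214 bp (2.999) lay upstream of the start. The window held 5300 and 5122 bp of H3K4me3.

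CDC25A had a short H3K4me3 region with almost all of it inside the gene. In control cells the start (chr3:48229801) was under a small interval of 244 bp (17.8), from 91 bp upstream to 152 bp downstream, which was parted by 218 bp from a gene-side interval of 2391 bp (52.4). After metformin 1 interval of 2746 bp (63.6) spanned this gap, and took in the small interval and 2269 of the 2391 bp. A further short interval lay upstream in each list, of 241 bp in control and 237 bp in treated cells, and 95 bp of these were common. Upstream coverage was 332 and 343 bp against 2543 and 2639 bp downstream, the most one-sided of the windows in control and after metformin.

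Summed over the 10 windows, H3K4me3 covered 51.4 kb in control cells and 56.1 kb after metformin, a ratio of 1.09. The whole lists had a ratio of 1.12, so the ratio of the members was not above that of all intervals. The length-weighted mean value of the members was 31.0 within the control list, whose own mean was 25.5, and 46.2 within the metformin list, whose own mean was 30.3. Whole widths were used. The metformin mean thus holds all 4204 bp of the CDK4 interval of value 103.5, which entered the window only at its edge. A control interval 5291 bp from the CDK4 start (2084 bp, 28.7) was left out. Coverage was longer after metformin at 7 starts and shorter at 3, CCNE2, CDK2 and CDK6, with ratios from 0.902 to 1.80 and a median of 1.07. CCNE1 and the downstream CCND3 start, with 1812 and 1425 bp more, gave most of the summed difference. At the other 8 starts the lists differed by 52 to 578 bp.

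**Figure D2:**
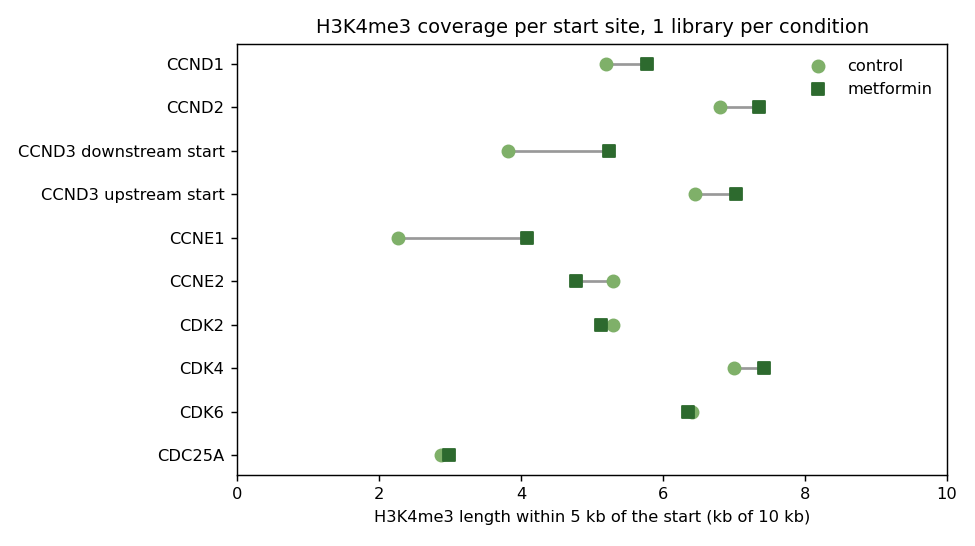
H3K4me3 length within 5 kb of each start, with 1 control (circle) and 1 metformin (square) library; the axis is in kb. CCNE1 has 2269 bp in control and 4081 bp after metformin, the downstream CCND3 start 3817 and 5242 bp, while CDK6 and CDC25A nearly coincide.

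Most members had a partner in the other condition. Of the 33 control H3K4me3 intervals, 32 (97.0%, exact Clopper-Pearson 95% interval 84.2 to 99.9, counting error only) were overlapped by metformin intervals, and of the 33 metformin intervals 25 (75.8%, 57.7 to 88.9) by control intervals. Over the whole lists these shares were 77.3% and 67.3%. Neighbouring members were often pieces under the same interval of the other list, as at CCND1. The 95% intervals treat such pieces as independent, so no conclusion is drawn from them. The control interval without a partner lay downstream of CCND1 (316 bp, 3.46). The 8 metformin intervals without one were 164 to 458 bp long with values up to 6.26: 3 lay at CCND1, 2 at the downstream CCND3 start and 1 each at CCND2, CCNE1 and CDK2. Of the 11 members that matched 1 to 1 between the lists, 6 were wider after metformin and 5 narrower, at a median ratio of 1.00. Over all such pairs 60.4% were wider, at a median of 1.06. Intervals of 4 kb or more numbered 2 of 33 in control (CCND2 and CDK6) and 7 of 33 after metformin, where the lists held 2.44% and 2.98%. Of these 7, 5 touched 2 to 4 control intervals each (CCND1, the upstream CCND3 start, CCNE2, CDK2 and CDK4). The CDK4 one was the interval that entered the window only at its edge, 4829 bp from the start. Those of 2 kb or more numbered 11 and 13, against 14.6% and 16.4%. Windows at start sites favour long intervals, so these counts are not read as a trait of the genes.

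Several starts lay in breaks of H3K4me3, and part of these were closed in the other list. A break was counted where 2 neighbouring intervals of a list were at most 2000 bp apart, a measure chosen after the data were seen. The windows held 23 breaks in control, of which 11 (47.8%) were spanned by 1 metformin interval, against 26.4% of all control breaks. They held 24 breaks after metformin, of which 4 (16.7%) were spanned by 1 control interval, against 14.9% of all. Breaks are not independent, since 1 interval can span several. The metformin interval over the CCND1 start touched 4 control intervals, and that over the upstream CCND3 start touched 3. No conclusion on the gene set is drawn from these shares. Breaks of up to 500 bp, which are spanned more often, gave 11 of 17 against 36.2% in control and 4 of 15 against 20.6% after metformin. Directly over the start, control cells had 5 breaks (CCND1, both CCND3 starts, CCNE1 and CDK4) and metformin-treated cells 3 (the downstream CCND3 start, CCNE1 and CDK4). Those of CCND1 and the upstream CCND3 start were the ones spanned, and they measured 202 and 199 bp. The smallest gap between H3K4me3 intervals was 165 bp in both lists, so shorter breaks are not seen. None of the 3 metformin breaks over a start was spanned in control. Read depth is unknown for both libraries.

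Aligned by strand, H3K4me3 was commonest on both sides of the start and less frequent at it. At the start itself 5 of 10 sites were covered in control and 7 after metformin. At 500 bp upstream 9 and 10 were covered, and at 1000 bp downstream all 10 in both. By 3000 bp downstream 3 and 4 sites were left, and at 3000 bp upstream 3 and 2. The gene side held more of the mark, 29.3 kb against 22.1 kb upstream in control and 31.2 kb against 24.9 kb after metformin. This did not hold for each start: the gene side was the larger at 5 of 10 in both conditions.

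**Figure D3:**
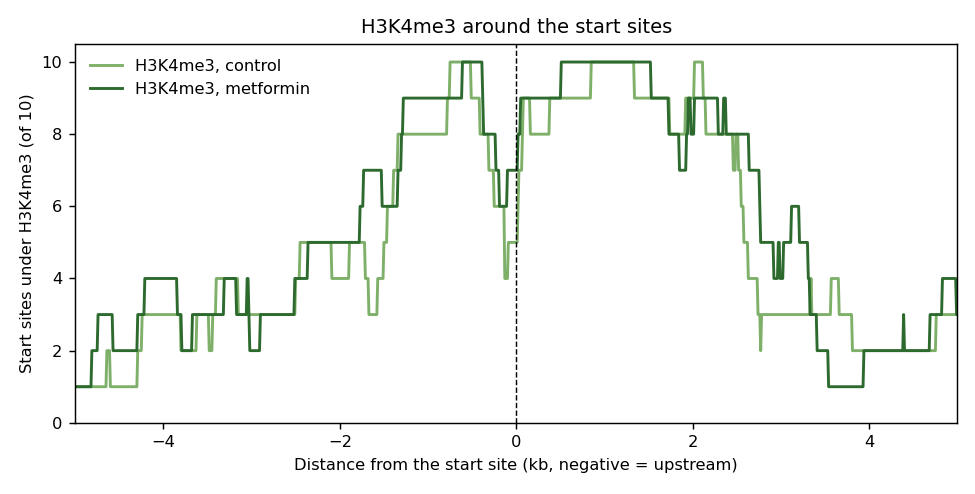
Number of the 10 starts under H3K4me3 at each distance (kb, negative upstream), with 1 line per condition. Both lines dip at and just before the start, where 5 sites in control and 7 after metformin are covered at the start itself, between broad shoulders.

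H3K27me3 was far from all members except CCND2. For the other 9 starts the nearest interval lay between 9.73 kb (CCNE1) and 234.7 kb (CDK6) away in control cells, and between 11.8 kb (CCNE1) and 274.7 kb (CCNE2) after metformin. CDK6 had the largest change of distance, to 15.2 kb after metformin, but through a single interval of 175 bp, chr7:92481178-92481352, with a value of 1.35. At CDK4 the nearest interval lay 21.7 kb downstream in control and 12.1 kb upstream after metformin, with values of 1.17 and 1.27. At CDC25A it lay 35.9 and 26.1 kb upstream (1.18 and 1.26). The H3K27me3 lists begin at values of 1.01 and 1.00, and their length-weighted means were 1.67 in control and 1.68 after metformin. The values of these calls at CDK6, CDK4 and CDC25A were below the means, and their ranks were not computed. H3K27me3 values were taken to be −log10 q averaged over a region, which is inferred and was not tested.

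**Figure D4:**
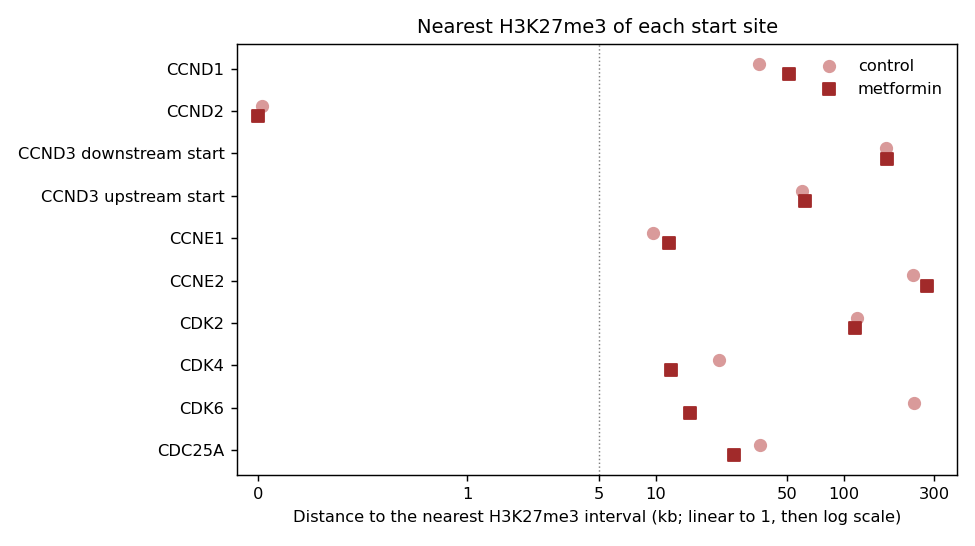
Distance from each start to the nearest H3K27me3 interval, in kb on an axis that is linear to 1 and logarithmic beyond, with control as circles and metformin as squares. The dotted line marks 5 kb, and only CCND2 lies to its left.

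Within 100 kb of the start, CCNE1 and CCND1 also had H3K27me3 in both lists. Around CCNE1, 32 control intervals covered 36.5 kb and 42 metformin intervals 46.9 kb. The longest was chr19:30230057-30234176 in control (4120 bp) and chr19:30369784-30373322 after metformin (3539 bp). Around CCND1 the control list was the longer, with 15.0 kb in 16 intervals against 11.3 kb in 10, led by chr11:69538241-69541691 (3451 bp) and chr11:69506870-69509460 (2591 bp). CCNE2, CDK2 and the downstream CCND3 start had none within 100 kb in either list. CDK4, CDC25A and CDK6 had 1.04, 0.290 and 0 kb in control and 7.16, 2.95 and 0.175 kb after metformin, and the upstream CCND3 start 2.78 and 2.14 kb.

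CCND2, which encodes cyclin D2, carried both marks over its promoter. Its start (chr12:4382902) was under H3K4me3 in both lists, by chr12:4379919-4385361 in control (5443 bp, 15 sub-peaks, 17.8) and chr12:4380000-4384624 after metformin (4625 bp, 14 sub-peaks, 25.3). Of the 5 starts covered in both lists, CCND2 was the only one whose covering interval was shorter after metformin. There a break of 207 bp, from 1723 to 1929 bp downstream, set apart an interval of 826 bp. The smaller upstream intervals were 952, 487 and 477 bp long in control (10.6, 13.1 and 19.7) and 858 and 1118 bp after metformin (13.1 and 26.0), and a metformin interval of 360 bp (6.26) lay furthest downstream. In all, H3K4me3 covered 6804 bp in control and 7357 bp after metformin. RefSeq places the long noncoding RNA gene CCND2-AS1 beside CCND2, so not all of this H3K4me3 can be given to CCND2 with certainty.

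H3K27me3 at CCND2 was called in 6 pieces in control and 4 after metformin. In control the nearest piece, chr12:4381674-4382882 (1209 bp, value 2.12), ended 20 bp before the start, and the next, of 645 bp (1.999), began 968 bp downstream. After metformin 1 interval, chr12:4380438-4384512 (4075 bp, 2.03), covered the start, from 2464 bp upstream to 1610 bp downstream. It took in all 1209 bp of the former piece and 643 of the 645 bp of the latter. The outermost upstream piece was chr12:4369121-4378279 in control (9159 bp, 2.58) and chr12:4357010-4378243 after metformin (21234 bp, 2.27), which end 4623 and 4659 bp before the start. The remaining pieces were 783, 1840 and 2768 bp long in control (2.58, 1.57 and 2.08) and 453 and 3183 bp after metformin (2.73 and 2.20). The break of 987 bp over the start was thus filled in. The smallest gap between H3K27me3 intervals was 642 bp in the control list and 670 bp in the metformin list, so shorter breaks are not seen. Of 5 breaks in the control window 2 were spanned, where 18.4% of all control H3K27me3 breaks were. None of the 3 metformin breaks was spanned in control, against 14.6%. Covered length in the window came to 4856 bp in control cells and 7471 bp after metformin, 1.54 times as much, while the whole lists had a ratio of 1.09. With a 10 kb window on each side of all starts, which takes in a control interval near CCNE1, the ratio was 1.03. At CCND2 that window held 7.37 kb upstream and 6.11 kb downstream in control, and 8.26 and 5.95 kb after metformin. All 6 control and 4 metformin pieces overlapped a partner in the other list by 1 bp or more, where 48.3% and 46.3% of all H3K27me3 intervals did. With at least 50% of the piece overlapped, 4 of 6 and 3 of 4 did. The best values of these pieces, 2.58 and 2.73, were above 98.7% and 99.1% of their lists. The best of several pieces ranks high more easily than a single interval does. The lowest control piece (1840 bp, 1.57) was above 57.3% of its list, and the lowest metformin piece (4075 bp, 2.03) above 90.6%.

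**Figure D5:**
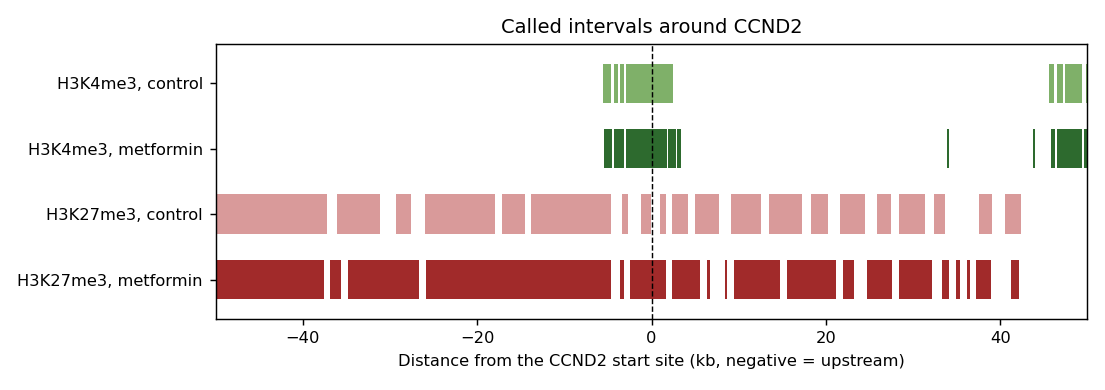
Called intervals within 50 kb of the CCND2 start, with 1 row per list; the axis is distance in kb, negative upstream. H3K4me3 forms an island at the start inside long H3K27me3 stretches, and the metformin row of H3K27me3 has fewer breaks upstream.

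The CCND2 promoter sits inside a longer H3K27me3 domain that reaches further upstream than downstream. Of the 100 kb upstream of the start, 80.9% was under H3K27me3 in control and 88.7% after metformin, in 16 and 10 intervals. Of the 100 kb downstream, 29.5% and 32.6% were. The 20 kb next to the start upstream were covered to 79.1% and 91.3%, and the 20 kb downstream to 70.9% and 75.7%. Of the 50 kb downstream, 52.9% and 57.2% were covered. The longest interval that reached within 100 kb was chr12:4306785-4326760 in control (19976 bp) and chr12:4296223-4345333 after metformin (49111 bp).

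Both marks overlapped over 3016 bp of the CCND2 window in control, which was 44.3% of the H3K4me3 there, and over 5586 bp after metformin, or 75.9%. When the control H3K4me3 list was set against the metformin H3K27me3 list, 4893 bp were common, and 3565 bp with the lists exchanged the other way. Most of the difference thus went with the H3K27me3 calls. All other windows had no sequence under both marks in either condition. H3K4me3 members overlapped by H3K27me3 were 3 of 33 in control and 5 of 33 after metformin, all at CCND2, where 2.78% and 4.55% of the whole lists were overlapped. By overlapped length, the start-covering CCND2 interval ranked second of the 1408 control intervals with both marks (2346 bp, 43.1% of its width) and second of the 2432 metformin intervals (4075 bp, 88.1%). The others among the leading 3 were chr11:109293001-109295721 (2364 bp) and chr12:113903387-113905701 (2315 bp) in control. After metformin they were chr2:136872431-136877421 (4265 bp) and chr1:152079692-152084333 (3699 bp). Bulk chromatin does not tell whether the marks lie on the same alleles or in different cells. RNA was not measured in these libraries.

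Just inside the 5 kb limit lay a control H3K4me3 interval of CDK4 at 4757 bp (334 bp, 6.69) and just outside another of CDK4 at 5291 bp (2084 bp, 28.7). For H3K27me3 in control, the CCND2 interval that begins 5000 bp downstream (2768 bp, 2.08) was the last inside, and the next began 9148 bp away (3380 bp, 1.96). After metformin the last H3K4me3 interval inside lay at 4829 bp and the next at 5460 bp, both at CDK4. For H3K27me3 they lay at 4659 and 6320 bp, both at CCND2.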

How the data were processed

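H3K4me3 and H3K27me3 were measured by ChIP-seq in H1299 cells with 1 library per mark and condition. Per the labels' protocols, chromatin was fixed with formaldehyde and cut with micrococcal nuclease. Per the submitters' processing notes, Trimmomatic 0.38, Bowtie and MACS2 were used on hg19; options and the background library were not stated there. The deposited lists give 1 value per peak, taken to be a −log10 q because of its range: H3K4me3 lists begin at 1.31 (q = 0.05 is 1.30) and H3K27me3 lists at 1.01 and 1.00 (q = 0.1 is 1.00). These values rank intervals within a list and are not compared between conditions, and depth is unknown.

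Lines with the same interval were joined and kept the highest value. Start sites on hg19 were given with the gene set. Strands came from RefSeq promoters for 5 genes and otherwise from the genes' known orientation. Overlap meant at least 1 bp, and coordinates are 1-based. All 9 genes and all their intervals are named; other intervals are named as the nearest or longest H3K27me3 of a start, or as 1 of the 3 longest overlaps of the marks. Members, lists and measures were chosen with earlier results of these data known. A list of other G1/S genes (inhibitors, RB and E2F families) was not analysed, for want of hg19 positions. With 1 library per group no test was made. Alternatives were window size, value threshold, merging and overlap minimum. Overlap code was tested on simulated data from 50585 H3K4me3 and 85579 H3K27me3 control intervals, with 100% recovered and 0% false, and equalled bedtools 2.31.1. Python 3.11.15, pandas 2.3.3, numpy 2.4.6, scipy 1.17.1 and matplotlib 3.10.9 were used.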

Additional observations from a re-analysis of the deposited data

How the results depend on the processing

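No paired analysis was possible because each condition had a single library of each mark, and no replicate could be left out. The 200 bp limit and the exclusion of CCND2 were chosen after seeing the data. The H3K4me3 length ratio (1.09) was 1.08 with 2 kb windows, 1.10 with 10 kb windows, 1.09 with intervals within 1 kb merged, 1.05 at values of 5 or more and 1.09 without the CCND2 window. The H3K27me3 ratio (1.54) was 1.95 with 2 kb windows, 1.03 with 10 kb windows and 1.35 with merging, and did not move at values of 1.5 or more. Of the 10 starts, 5 in control and 7 after metformin were covered by H3K4me3. With an interval within 200 bp of the start counted, 9 were in each, and within 1 kb 10 were in each, so the difference between the conditions rests on short breaks. H3K27me3 came within 10 kb of 2 starts in control, CCNE1 being the second, and of 1 after metformin. At values of 5 or more, 100% of control H3K4me3 members (29 of 29) were shared. With merging, both marks covered 4849 bp in control and 8327 bp after metformin. The other settings left counts within 1.5 times and shares within their 95% intervals, which treat neighbouring pieces as independent. With at least 50% of an interval overlapped, shared H3K4me3 members were 30 of 33 in control and 21 of 33 after metformin. Shared H3K27me3 members were 4 of 6 and 3 of 4. The H3K27me3 intervals run from 54.1% to 100% in control and from 39.8% to 100% after metformin, too wide to show that sharing was unchanged. Depth is unknown and limits all of these values.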
